A study of Mus musculus with 6 samples.

Results

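The genes described here are 41 regulators and executors of cell death: the BCL2 family, caspases and their regulators, the Fas death receptor pathway, and p53 with a set of its target genes. They were chosen by name, as the rows of the deposited gene table whose symbol equals one of the 41, and all 41 were found among 39527 genes. RNA sequencing was done on group 2 innate lymphoid cells (ILC2s), which were sorted from the lungs of mice. The KO group held 3 samples from R5/+LKB1f/f mice and the WT group 3 samples from R5/+ mice. Both groups had received 4 days of IL-33 challenge, so that no unstimulated cells enter the comparison. The R5 allele was carried by both groups, and the labels spell out neither it nor the driver of any recombinase. Each sample pooled 3 to 4 mice, and no label says whether pools shared a litter, a sort or a day.

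ILC2s are tissue-resident lymphocytes without antigen receptors that answer epithelial alarmins such as IL-33 with type 2 cytokines. Their survival, like that of other lymphocytes, is known to hang on a balance within the BCL2 family. Pro-survival members hold the pore-forming effectors BAX and BAK in check, and BH3-only proteins release that hold under stress or cytokine loss. Released cytochrome c assembles the apoptosome, which starts a cascade of caspases, while death receptors start the same cascade through caspase-8. The tumour suppressor p53, held low by its ubiquitin ligase MDM2, switches on several BH3-only, effector and death receptor genes together with genes of growth arrest and repair. LKB1, the kinase encoded by Stk11 and floxed in the KO group, activates AMPK, which has been linked to p53 and to sestrins in other cells.

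The values were the authors' comparison of the genotypes, with 1 log2 fold change, 1 standard error (SE) and 1 adjusted p for each gene. A gene was called where the adjusted p was below 0.05, and positive or negative is the sign that the fold change carries in the authors' deposited table. Neither the table nor the labels state which genotype is the numerator. The floxed gene Stk11 had -1.34 ± 0.30 (SE, adjusted p = 0.000103) in the authors' deposited table, so that a negative gene shares its sign. If Stk11 was lower in KO, as deletion would make it, a negative value is lower in KO. Levels are the authors' mean normalized counts, averaged over the libraries of their fit, and are compared between genes only after division by exonic length. Values of single samples, and the depth behind them, were not used here, and no source used here says which libraries lie behind the fit. Intervals are 95% intervals from the deposited standard errors, so they hold only as far as that fit does.

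Most of the 41 genes did not pass the test. Of the 38 with an adjusted p, 1 was positive and 3 were negative, or 10.5% called, against 24.5% of all 14961 tested genes (11.0% positive and 13.5% negative). Among the 31 genes with a mean of at least 100 normalized counts the share was 12.9%, against 32.8% of tested genes at that level. The 4 called genes were the caspase-8 inhibitor gene Cflar on the positive side, and Pmaip1, Bcl2a1d and Casp1 on the negative side. The median log2 fold change was 0.0246 over the 38 genes and -0.00557 over all tested genes, and the median absolute log2 fold change was 0.202 and 0.376. The fold change of none of the 38 reached 2-fold, while 2024 of all 14961 tested genes exceeded it, and 796 of 9714 with a mean of at least 100. Of the 38, 31 (81.6%) had an interval wholly within 2-fold either way, against 53.2% of all tested genes. At a mean of at least 100 these shares were 93.5% and 76.7%. The median absolute log2 fold change at that level was 0.1745 and 0.3192. A further 3 genes, Bcl2a1a, Hrk and Eda2r, had means of 9.46, 3.63 and 10.02 normalized counts and no adjusted p in the authors' deposited table.

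**Figure D1:**
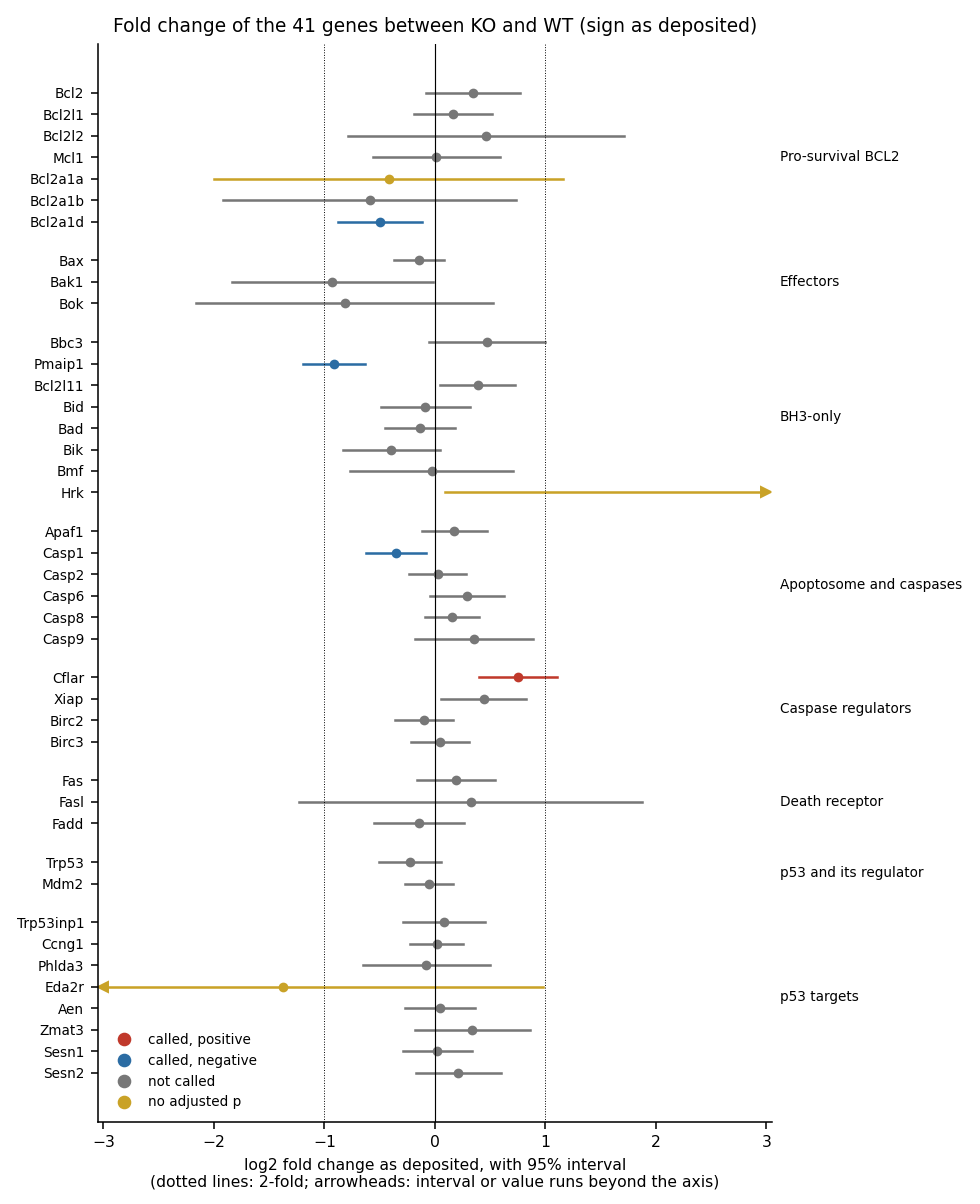
Log2 fold change of each of the 41 genes (points) with its 95% interval (lines), grouped by role. The called genes are Cflar, right of 0, and Pmaip1, Bcl2a1d and Casp1, left of it. Intervals of Bcl2l11, Xiap, Bak1 and Hrk also lie clear of 0, but these genes were not called. Every tested point lies between the dotted lines of 2-fold change.

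The pro-survival genes, whose products bind and restrain BAX, BAK and BH3-only proteins, were led in level by Bcl2a1d and Bcl2l1, the gene of BCL-XL. Per kb of exon, Bcl2a1d had 708.3 normalized counts and Bcl2l1 689.5, ahead of Mcl1 with 224.8 and Bcl2 with 193.003. Bcl2l2, which encodes BCL-W, had only 5.06 per kb. Of the 6 tested pro-survival genes, 0 were positive and 1 was negative (16.7% called, against 24.5% of all tested genes). Bcl2 had a log2 fold change of 0.35 ± 0.22 (SE, adjusted p = 0.251) in the authors' deposited table. Bcl2l1 had 0.16 ± 0.18 (adjusted p = 0.568) and Mcl1, the short-lived member, 0.01 ± 0.29 (adjusted p = 0.983) in the authors' deposited table. The interval of Bcl2l1 runs from a ratio of 0.875 to 1.43 and that of Mcl1 from 0.678 to 1.501, and both exclude a 2-fold change. Bcl2l2 had 0.46 ± 0.64 in the authors' deposited table, an error at which a log2 fold change below 1.59 in size could not have been called. Exons of Gm20521 on the same strand overlap 13.3% of its exonic length.

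Bcl2a1 is a haematopoietic pro-survival gene that NF-kB is known to induce, and the mouse carries it as several near-identical copies on chromosome 9. The sequences below are shown because their likeness bears on how reads are shared among the copies. They are coding bases 1 to 150 of each copy (GENCODE M21, mm10), in lower case, with capitals at the 7 positions where the 3 copies are not all alike.
Bcl2a1a: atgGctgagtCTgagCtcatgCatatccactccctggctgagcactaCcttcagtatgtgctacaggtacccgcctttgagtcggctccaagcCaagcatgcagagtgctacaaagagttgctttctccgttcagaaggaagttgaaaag
Bcl2a1b: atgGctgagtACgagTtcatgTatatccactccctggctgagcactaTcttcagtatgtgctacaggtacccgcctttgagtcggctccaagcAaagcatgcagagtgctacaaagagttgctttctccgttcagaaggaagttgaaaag
Bcl2a1d: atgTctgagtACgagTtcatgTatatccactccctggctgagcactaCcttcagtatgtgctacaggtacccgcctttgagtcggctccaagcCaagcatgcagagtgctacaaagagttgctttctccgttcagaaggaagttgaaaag

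Over the whole coding sequence of 516 bases the copies differ at 12 positions in all. Bcl2a1b and Bcl2a1d are 98.8% identical, Bcl2a1a and Bcl2a1d 98.6%, and Bcl2a1a and Bcl2a1b 97.9%. Of the 100-base windows of the Bcl2a1d transcript, 54.7% occur unchanged in one of the other copies, against 43.5% for Bcl2a1a and 31.1% for Bcl2a1b. Bcl2a1d had a mean of 611.2 normalized counts, Bcl2a1b 12.57 and Bcl2a1a 9.46 in the authors' deposited table. Exons of Gm29094 on the same strand overlap 49.1% of the exonic length of Bcl2a1b, so its count is uncertain for that reason too. The fold change was negative for all 3 copies, at -0.50 ± 0.19 for Bcl2a1d, -0.59 ± 0.68 for Bcl2a1b and -0.42 ± 0.81 for Bcl2a1a in the authors' deposited table. Only Bcl2a1d (chromosome 9, 88723285 to 88731914, ENSMUSG00000099974) was called (adjusted p = 0.0423 in the authors' deposited table), with a ratio of 0.708 (95% interval 0.545 to 0.920). No source used here says how the authors' counting treated reads that match several copies, so the split of counts among the copies is uncertain. The call of Bcl2a1d also rests on the fold changes as deposited: its transcript is short, and with the trends of fold change on gene length and GC content removed its log2 fold change was -0.07 (adjusted p = 0.844).

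The effector genes make the pore in the outer mitochondrial membrane. Bax was abundant, with 1151 normalized counts per kb, while Bak1 had 14.4 and Bok, a more distant relative, 8.03. Bax had a log2 fold change of -0.14 ± 0.12 (adjusted p = 0.412) in the authors' deposited table, and its interval runs from a ratio of 0.774 to 1.062. Exons of Gm45808 on the same strand overlap 12.2% of the exonic length of Bax. Bak1 had -0.93 ± 0.46 (unadjusted p = 0.0455, adjusted p = 0.135) in the authors' deposited table. Bok had -0.82 ± 0.69 (adjusted p = 0.423) in the authors' deposited table. All 3 values lay below 0, as did 7537 of all 14961 tested genes. The 3 genes fall in the shortest 25% of protein-coding genes by exonic length, whose median log2 fold change was -0.244. With the length and GC trends removed, Bax had 0.03, Bak1 -0.83 and Bok -0.70. Of the 3, 0 were called, against 24.5% of all tested genes, and 1 had an unadjusted p below 0.05. At the errors of Bak1 and Bok, a log2 fold change below 1.16 and 1.72 in size could not have been called. Exons of Ggnbp1 on the opposite strand overlap 18.2% of the exonic length of Bak1, and its reads cannot be told apart without strand.

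**Figure D2:**
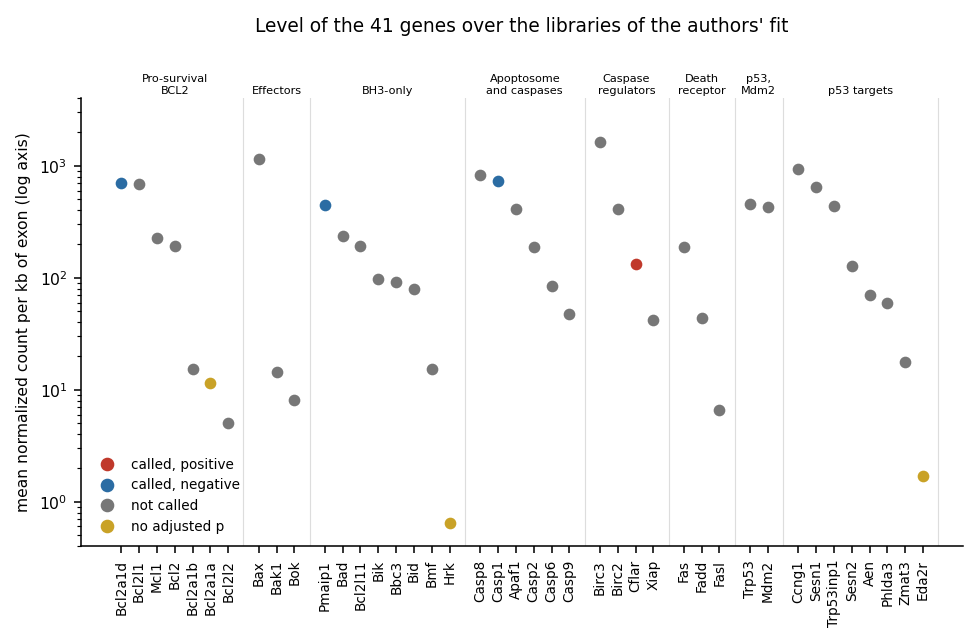
Mean normalized count per kb of exon (log axis) of the 41 genes, ordered by level within each role, coloured by call. Birc3 (1635), Bax (1151) and Ccng1 (927.9) stand highest, and Hrk (0.640) and Eda2r (1.70) lowest.

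The BH3-only genes, the stress sensors of the family, gave 1 call in 7 tested (14.3%, against 24.5% of all tested genes). Pmaip1, which encodes NOXA, the p53-inducible antagonist of MCL1, had -0.91 ± 0.14 at a mean of 1208 normalized counts in the authors' deposited table. Its adjusted p in the authors' deposited table, 1.03e-08, was the smallest of the 41 genes, and it ranked 211 by p among all tested genes. The ratio was 0.532 (95% interval 0.439 to 0.645). Pmaip1 (ENSMUSG00000024521) spans 66458533 to 66465565 of chromosome 18 in mm10. It was also the most abundant BH3-only gene per kb, with 442.2 normalized counts, ahead of Bad with 235.1 and Bcl2l11 with 193.6. The call was kept with the length and GC trends removed, at -0.72 (adjusted p = 1.24e-05).

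The other BH3-only genes did not pass. Bcl2l11, which encodes BIM, the mediator of death after cytokine loss, had 0.39 ± 0.18 (unadjusted p = 0.0275, adjusted p = 0.0934) in the authors' deposited table. Bbc3, which encodes PUMA, another p53-inducible BH3-only protein, had 0.47 ± 0.27 (adjusted p = 0.201) in the authors' deposited table. Its value thus has the opposite sign to that of Pmaip1, and the difference between the 2 genes was not tested. Bik had -0.39 ± 0.22 and Bmf, which is tied to the cytoskeleton, -0.03 ± 0.37 in the authors' deposited table. Bid, the link from caspase-8 to mitochondria, had -0.08 ± 0.20 and Bad, which growth factor kinases inactivate, -0.14 ± 0.16 in the authors' deposited table. Exons of Bcl2l13 on the opposite strand overlap 17.7% of the exonic length of Bid, and those of Gpr137 overlap 20.5% of that of Bad, so these values are uncertain without strand. Hrk had 3.89 ± 1.94 in the authors' deposited table on a mean of 3.63 normalized counts, and its interval for the ratio runs from 1.06 to 207.9.

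The apoptosome and caspase genes gave 1 call in 6 (16.7%, against 24.5% of all tested genes). Casp1, the inflammatory caspase that matures IL-1 family cytokines rather than an apoptotic enzyme, had -0.35 ± 0.14 (adjusted p = 0.0436) in the authors' deposited table. The ratio of Casp1 (chromosome 9, 5298517 to 5307265, ENSMUSG00000025888) was 0.782, with a 95% interval of 0.649 to 0.944. With the length and GC trends removed it was not called, at -0.03 (adjusted p = 0.901). Casp8, the death receptor initiator and the most abundant of the 6 per kb (824.4), had 0.15 ± 0.12 (adjusted p = 0.396) in the authors' deposited table. It was called positive only after those trends were removed, at 0.35 (adjusted p = 0.0269). Apaf1, the scaffold of the apoptosome, had 0.17 ± 0.15 and its client Casp9 0.36 ± 0.27 in the authors' deposited table. Casp2 had 0.03 ± 0.13 and the executioner Casp6 0.29 ± 0.17 in the authors' deposited table. All 6 intervals lay within 2-fold either way.

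The caspase regulators held the positive call. Cflar encodes c-FLIP, the catalytically inactive caspase-8 homologue that blocks death receptor signalling, and had 0.75 ± 0.18 at a mean of 1673 normalized counts in the authors' deposited table. Its adjusted p was 0.000433 in the authors' deposited table, and the ratio was 1.68 (95% interval 1.32 to 2.15). Cflar (ENSMUSG00000026031) spans 58711508 to 58758884 of chromosome 1 in mm10, just before Casp8, which spans 58795374 to 58847503. Its call was kept with the length and GC trends removed, at 0.61 (adjusted p = 0.00639). The gene-level value does not separate the long and short forms of c-FLIP, which differ in function.

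Xiap, the direct inhibitor of caspases, had 0.44 ± 0.20 (unadjusted p = 0.0263, adjusted p = 0.0902) in the authors' deposited table. The ubiquitin ligases cIAP1 and cIAP2, encoded by Birc2 and Birc3, keep TNF receptor signalling on the NF-kB side. Birc3 was the most abundant of all 41 genes per kb, with 1635 normalized counts, and had 0.05 ± 0.13 (adjusted p = 0.838) in the authors' deposited table. Birc2 had -0.10 ± 0.13 (adjusted p = 0.649) in the authors' deposited table. The intervals of both run within 1.29-fold either way, among the narrowest here.

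**Figure D3:**
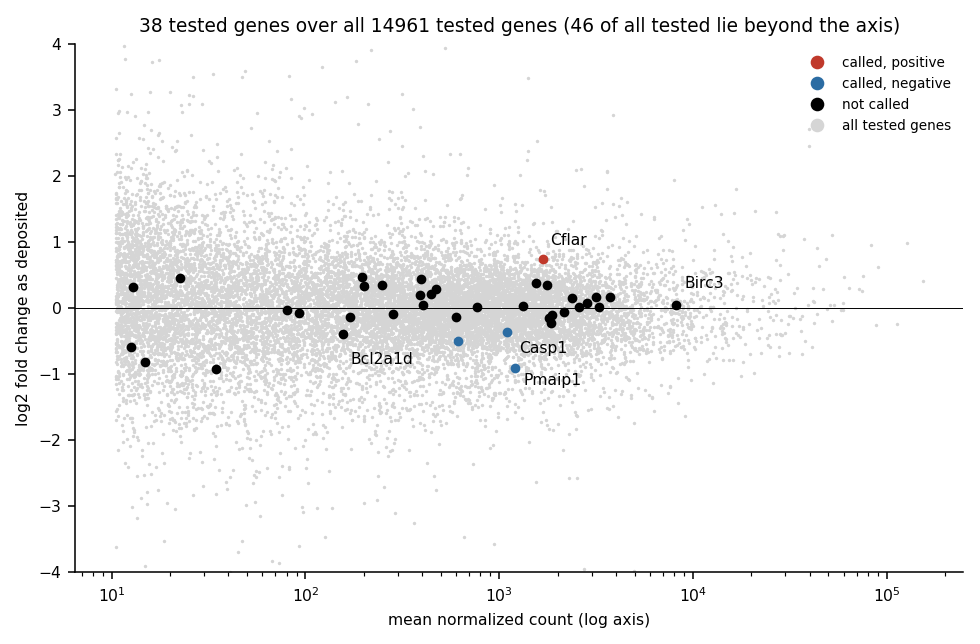
Log2 fold change against mean normalized count (log axis) for all 14961 tested genes (grey), of which 46 lie beyond the axis, and for the 38 tested genes of the set. Of the genes of the set with a mean of at least 100, Pmaip1 (-0.91) is the lowest and Cflar (0.75) the highest, both inside the spread of the grey points, and Birc3 (0.05) lies near 0.

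In the death receptor pathway, 0 of 3 genes were called, against 24.5% of all tested genes, and 0 had an unadjusted p below 0.05. Fas, the receptor and a p53 target, had 0.19 ± 0.18 (adjusted p = 0.479) in the authors' deposited table, at 189.8 normalized counts per kb. It passed the threshold only with the length and GC trends removed, at 0.46 (adjusted p = 0.0455). Fadd, the adaptor that recruits caspase-8, had -0.14 ± 0.21 (adjusted p = 0.686) in the authors' deposited table. Fasl, the ligand that cytotoxic cells carry, was near the bottom of the tested range, with a mean of 12.88 normalized counts and 0.32 ± 0.79 (adjusted p = 0.816) in the authors' deposited table. Its interval runs from a ratio of 0.426 to 3.68, so that a change of 2-fold was not detectable at this level.

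Neither p53 nor its regulator was called. Trp53 had a log2 fold change of -0.23 ± 0.14 (adjusted p = 0.258) in the authors' deposited table, at a mean of 1857 normalized counts. Mdm2, which is both the ubiquitin ligase of p53 and its target, had -0.05 ± 0.11 (adjusted p = 0.775) at a mean of 2156 in the authors' deposited table. The ratio of Mdm2 lay between 0.830 and 1.118, the narrowest interval of the set, and that of Trp53 between 0.705 and 1.038. These values are of messenger RNA, whereas p53 is known to be controlled mostly through the stability of its protein.

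The log2 fold changes of the tested p53 target genes lay between -0.08 and 0.34 in the authors' deposited table. Of 8 such genes, 7 were tested and 0 were called, against 24.5% of all 14961 tested genes. Of the 7, 0 had an unadjusted p below 0.05, against 5178 of all 14961 tested genes. All 7 intervals lay within 2-fold either way. Ccng1, a cyclin-like regulator of MDM2 and the most abundant target per kb (927.9), had 0.01 ± 0.12 (adjusted p = 0.950) in the authors' deposited table. Its ratio had an interval of 0.854 to 1.195, and no other tested gene of the set was bounded as close to no change. Sesn1 and Sesn2 encode sestrins, which restrain mTORC1 and are tied to AMPK, and Sesn2 also answers amino acid shortage. They had 0.02 ± 0.16 (adjusted p = 0.942) and 0.21 ± 0.20 (adjusted p = 0.474) in the authors' deposited table. Trp53inp1, a stress-induced cofactor of p53, had 0.08 ± 0.19, and the nuclease gene Aen 0.05 ± 0.16 in the authors' deposited table. Phlda3, an inhibitor of AKT, had -0.08 ± 0.29 and Zmat3, an RNA-binding regulator of splicing, 0.34 ± 0.26 in the authors' deposited table. Eda2r, a TNF receptor relative, had a mean of 10.02 normalized counts and -1.37 ± 1.20 in the authors' deposited table, with no adjusted p.

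Bax, Bbc3, Pmaip1, Apaf1, Fas and Mdm2 are known p53 targets as well. Over these and the 8 above, 13 were tested and 1, Pmaip1, was called (7.69%, against 24.5% of all tested genes). Their median log2 fold change was 0.0457, and 12 of the 13 intervals lay within 2-fold, Pmaip1 being the exception. The intervals of 8 of them, Bax, Mdm2 and Ccng1 included, exclude a 1.5-fold change.

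The p53 protein binds a pair of decamers, and a search for 1 exact copy of the p53 decamer consensus was made in promoter windows of RefSeq (GRCm38.p6), from 250 bases before to 50 after each start. The consensus is its own reverse complement, so that 1 search covers both strands. A match stood in 6 of 15 windows of the p53 targets (40.0%) and in 10 of 50 windows of all members (20.0%), against 8.36% of all 32851 windows. These windows belong to 37 of the 41 genes, and 11 of the 14 targets. A window with 2 matches no more than 13 bases apart was found for 0 members, and for 0.0731% of all windows. The matches are shown, in capitals and 5′ to 3′ on the strand of the gene, for the 5 targets that hold one, to set the letters beside the measured values. No match was found for the other targets, some of which had no window. Their tested values ran from -0.91 for Pmaip1 to 0.47 for Bbc3 in the authors' deposited table, with -0.08 for Phlda3. Any link between a match and a fold change was not tested.
Bax, chr7:45467055-45467134, minus strand: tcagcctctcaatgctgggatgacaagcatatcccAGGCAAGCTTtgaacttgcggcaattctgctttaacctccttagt
Aen, chr7:78895902-78895981, plus strand: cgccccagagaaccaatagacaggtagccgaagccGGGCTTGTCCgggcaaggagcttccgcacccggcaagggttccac
Sesn1, chr10:41887231-41887310, plus strand: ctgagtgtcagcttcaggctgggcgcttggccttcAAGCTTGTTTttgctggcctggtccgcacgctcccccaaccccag
Mdm2, chr10:117710900-117710979, minus strand: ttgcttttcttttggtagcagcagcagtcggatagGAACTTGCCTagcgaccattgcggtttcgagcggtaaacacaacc
Ccng1, chr11:40755427-40755506, minus strand: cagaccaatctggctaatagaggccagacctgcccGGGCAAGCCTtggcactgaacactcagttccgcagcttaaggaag

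The log2 fold changes of these 5 genes lay between -0.14 for Bax and 0.05 for Aen in the authors' deposited table. Of the 5, 0 were called, against 24.5% of all tested genes. The match in Aen was found in both of its windows, which start at different places and share these bases. A match is a run of letters and not a measured site, and several known p53 sites, such as those of Mdm2, lie inside the gene and outside these windows.

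Of 2 further lists from the same pathways, that of other apoptosis genes was called at a share near that of all tested genes. Of 30 other apoptosis genes, 27 were tested, 2 were positive and 5 negative (25.9%, against 24.5% of all tested genes), with a median log2 fold change of -0.00871. Birc5, which encodes survivin, an inhibitor of apoptosis family member needed for mitosis, had -1.75 ± 0.24 (adjusted p = 4.98e-11) in the authors' deposited table. On the positive side, the inflammatory caspase gene Casp4 had 0.47 ± 0.16 (adjusted p = 0.0160) and the large ubiquitin ligase gene Birc6 0.35 ± 0.13 (adjusted p = 0.0412) in the authors' deposited table. Traf1, the most abundant per kb of this list and a TNF receptor adaptor, had -0.35 ± 0.12 (adjusted p = 0.0267) in the authors' deposited table.

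Of 30 other p53 pathway genes, all were tested, 8 were positive and 3 negative, with a median of 0.122. The share called was 36.7%, against 24.5% of all tested genes and 32.8% of those with a mean of at least 100 normalized counts. Btg2, an antiproliferative gene and the most abundant of the list per kb (2342), had 0.66 ± 0.10 (adjusted p = 3.86e-10) in the authors' deposited table. Plk2, a polo-like kinase gene, had 1.23 ± 0.18 (adjusted p = 2.95e-09) in the authors' deposited table. The negative calls were led by Ckap2, a spindle-associated gene, at -1.51 ± 0.19 (adjusted p = 4.69e-13), and Rps27l, a ribosomal protein gene, at -0.91 ± 0.17 (adjusted p = 1.80e-06) in the authors' deposited table. Cdkn1a, which encodes the cell cycle inhibitor p21, had 0.61 ± 0.21 (adjusted p = 0.0188) in the authors' deposited table. Btg2, Plk2 and Cdkn1a are also immediate early or growth factor response genes, and which input moved them was not tested. The p53 family gene Trp73 was negative at -3.15 ± 0.62 on a mean of only 57.97 normalized counts in the authors' deposited table. No test compared these lists with the 41 genes.

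**Figure D4:**
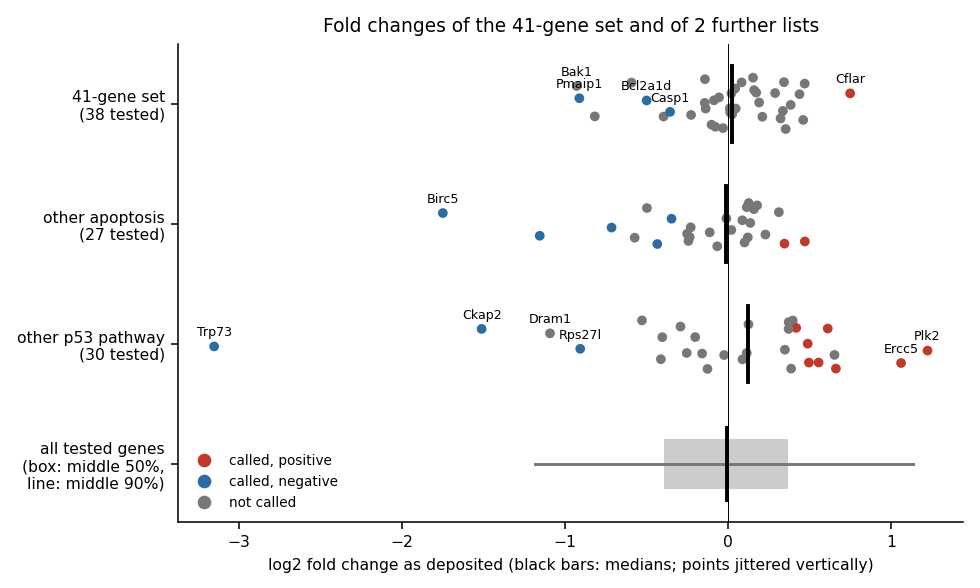
Log2 fold changes of the 38 tested genes of the set, of 2 further lists and of all tested genes. Points are genes and black bars medians (0.0246, -0.00871, 0.122 and -0.00557 from top to bottom), and the 41-gene set has no point beyond 1 in size, while Birc5 (-1.75), Ckap2 (-1.51) and Plk2 (1.23) lie outside it.

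Fold changes in the whole table followed gene length, and the 38 genes moved with that pattern. The median log2 fold change of protein-coding genes was -0.244 in the shortest 25% by exonic length (204 to 2879 bases) and 0.155 in the longest 25% (from 7059 bases). The 13 tested genes of the set in the shortest 25% had a median of -0.354 and the 6 in the longest 25% had 0.366. All 3 negative calls fell in the shortest 25%, with exonic lengths of 863 bases for Bcl2a1d, 1497 for Casp1 and 2732 for Pmaip1. The positive call, Cflar, had the longest exonic length of the set, 12669 bases. Of all protein-coding genes, 29.6% were called in the shortest 25% and 23.3% in the longest 25%. With the trends on length and GC content removed, Pmaip1 and Cflar kept their calls and Bcl2a1d and Casp1 did not.

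**Figure D5:**
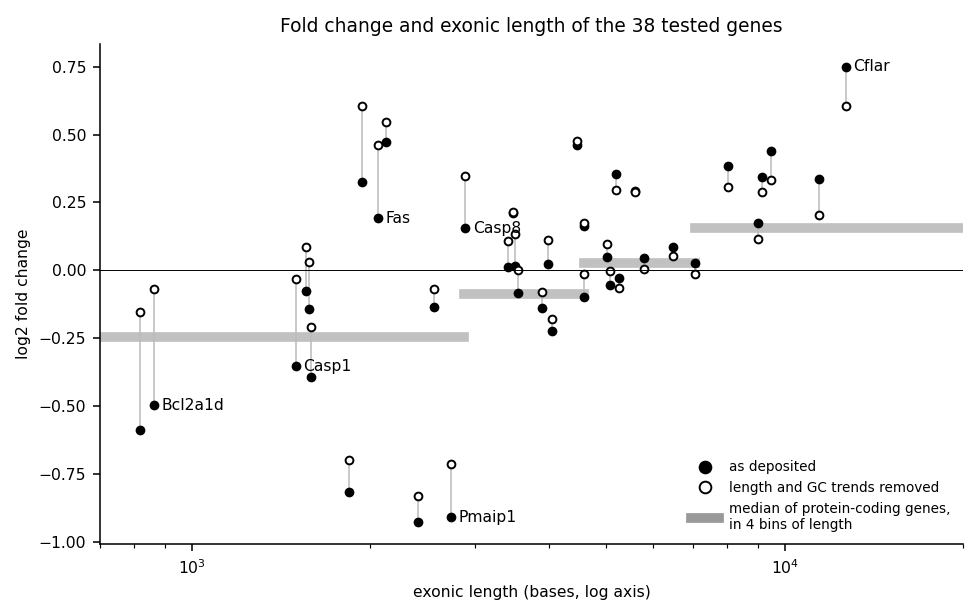
Log2 fold change of the 38 tested genes against exonic length (log axis), as deposited (filled) and with the length and GC trends removed (open), joined by lines. Grey bars are medians of protein-coding genes in 4 bins of length, from -0.244 to 0.155, and the lines of Bcl2a1d and Casp1 end near 0 while those of Pmaip1 and Cflar do not.

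The sorted cells had the marker genes of ILC2s. Each of 10 ILC2 markers, among them Gata3, Il1rl1 and Rora, had a mean of at least 618.6 normalized counts, with 171900 summed. Of the 10, Gata3 and Icos were positive and Klrg1 and Il13 negative. The share called was 40.0%, against 24.5% of all tested genes and 32.8% of those with a mean of at least 100. Of 26 markers of other cell types, 22 were tested, 18 of these lay below 0, and 0 were positive and 5 negative (22.7%, against 24.5% of all tested genes), with a median of -0.634. The red cell markers Hbb-bs and Hba-a1 had no p-value and the opposite sign, at 1.64 ± 0.92 and 1.87 ± 0.78 in the authors' deposited table. The called ones were Cd3g, Cd79b, Ighm, C1qa and Ngp. None of the 26 was at 0, and summed means were 7370 for B cells, 4684 for macrophages and monocytes, 2415 for T cells, 715 for neutrophils, 11395 for epithelium, 2553 for endothelium and 11875 for red cells. These sums are over lists of unlike size and are not divided by exonic length. Some are mostly 1 gene, such as Ighm (6264.5) for B cells and Lyz2 (4468.9) for macrophages and monocytes. They do not give relative amounts of the cell types. Neutrophils and B cells are known to express Bcl2a1 and myeloid cells Casp1, and Bcl2a1d and Casp1 share the negative sign of most of these markers. The part of other cells in any result was not tested, and in bulk samples fewer cells of a type and less RNA per cell cannot be told apart.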

How the data were processed

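Lung ILC2s of 3 KO and 3 WT samples were sequenced following IL-33 for 4 days. Per the labels' protocols, a SMART-Seq HT kit gave the cDNA and a TruePrep V2 kit the libraries, and neither is described as marking strand. The submitters' processing notes name HISAT2, Cufflinks and mm10; no source used here gives their versions, the counting tool or the test. Per the file headers, the authors deposited, gene by gene, a signal (the normalized count averaged over their libraries), the log2 fold change, its standard error, a score and p-values before and after adjustment. The deposited score equals the fold change over its standard error (largest difference 2.41e-07). An adjusted p was present for 14961 genes, all with a mean of at least 10.46. A further 12 columns of per-sample values matched no label; a few values were seen when the table was opened, and none entered a result. An edgeR fit, planned only if those columns matched the labels, was therefore not run, and no replicate was left out. No replicate block was planned, since the labels do not say that a number marks a shared batch. The depth per sample is unknown here.

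Intervals (95%) assume a normal distribution. The smallest callable change is the standard error times 2.51, the score at the largest called p (0.0122). Length, GC content, coordinates and overlaps came from GENCODE M21 (mm10), which holds 99.27% of the gene identifiers. Lowess trends (fraction 0.3) on length, then GC content, were removed over 13036 protein-coding genes. Full values are given for called genes, the most abundant of each role, and Trp53, Mdm2, Bcl2, Bcl2l1, Mcl1 and Bcl2l11. Of the further lists, the 2 smallest p-values in each direction among called genes and the most abundant gene are named; Cdkn1a and Trp73 were added after their values were seen, and some genes that these rules select are not reported here. Members, lists and roles were chosen with earlier results of these data known. The call step was tested on simulated data. Software was Python 3.11.15 with statsmodels 0.14.6, scipy 1.17.1, numpy 2.4.6, pandas 2.3.3 and matplotlib 3.10.9.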

Additional observations from a re-analysis of the deposited data

How the results depend on the processing

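The calls of Pmaip1 and Cflar were kept under each of the 8 alternatives tried, with adjusted p-values of at most 7.68e-05 and 0.0325. The other 2 calls were not: 2 members were called (1 positive, 1 negative) at an adjusted p below 0.01, with Benjamini-Hochberg adjustment over every gene with a p-value, with Benjamini-Yekutieli adjustment, with fold changes centred on the median of the most abundant 25% of genes (-0.0373), and against a null of an absolute log2 fold change of at most 0.25. With the length and GC trends removed, 4 were called, 3 positive (Casp8, Cflar and Fas) and 1 negative. At an adjusted p below 0.1, 6 were called, 3 of them positive, Bcl2l11 and Xiap being added. Over genes with a mean of at least 100 the 4 calls were the same genes. Of 56 tested other pathway genes, 18 were called (10 positive, 8 negative), against 24.5% of all tested genes, and 10 (5 and 5) at 0.01. The share of all tested genes called under each alternative is not given here. The counts under the alternatives therefore do not set these genes apart from others. Signs of uncalled genes near 0 turned for Bax (0.0305), Bid (0.000208), Casp2 (-0.0138) and Phlda3 (0.0848) with the trends removed, and for Bmf (0.0079) with centring; the cause was not tested. Stk11 lay between -1.40 and -1.30 and kept its call. No paired analysis was possible because the per-sample columns matched no label, so that no replicate number could be tied to a value, and no replicate could be left out. Genes below about 100 normalized counts had wide errors, and a 2-fold change in Bcl2l2, Bak1, Bok, Bcl2a1b or Fasl could not have been called with these errors.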

Other observations

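Neighbouring genes of these families did not always share a sign, an observation made after the values were seen. Casp1 (-0.35 ± 0.14) and Casp4 (0.47 ± 0.16) lie side by side on chromosome 9, at 5298517 to 5307265 and 5308828 to 5336783 in mm10, and were called in opposite directions in the authors' deposited table. The call of Casp1 was lost with the length and GC trends removed, and the difference between the genes was not tested. Birc2 and Birc3, neighbours on the same chromosome, stood at -0.10 ± 0.13 and 0.05 ± 0.13 in the authors' deposited table; neither was called.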
